A study of Mus musculus with 10 samples.

Results

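The genes described here are 44 interferon-stimulated genes, taken as a listed set of mouse symbols from the gene count matrix of RNA sequencing of colon crypts, the epithelial glands of the large intestine. All 44 symbols matched an Ensembl ID among the 33632 gene IDs of the matrix, and all 44 passed the filter on low counts that left 14963 genes to test. There were 5 libraries labelled flox, from Sox21fl/fl mice whose Sox21 alleles are flanked by loxP sites, and 5 labelled CKO, from Lgr5-EGFP-IRES-CreERT2/+;Sox21fl/fl mice. The CKO mice carried the same floxed alleles plus a knock-in at Lgr5 that makes a green fluorescent protein and a tamoxifen-inducible Cre recombinase in Lgr5-positive stem cells. The labels give a normal diet and a normal liver for both groups, and no age or sex. Only the CKO mice carried the Lgr5 knock-in, and Cre is made in the stem cells that express it. The RNA came from whole crypts, so a change confined to few cells would be diluted. The share of crypt cells that carried the deletion was not measured here. The labels do not say whether each library was a separate animal, and p-values therefore measure the spread between these libraries.

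Interferons are secreted proteins that signal through receptors and the kinases JAK1, JAK2 and TYK2 to STAT transcription factors. Type I and type III interferons act through a complex with STAT2 and IRF9 on an element called the ISRE, and interferon gamma acts on an element called GAS. The induced genes include sensors of viral nucleic acid, transcription factors that amplify the response, the ubiquitin-like protein ISG15 with its enzymes, and proteins that block viral RNA, viral translation or the vacuoles of intracellular pathogens. In the gut, epithelial cells are a main target of type III interferon, and a low tonic level of these transcripts is found in healthy intestinal epithelium.

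The promoters of 9 members are shown because they carry these elements in the arrangements that recur among the 44 genes. Each window holds the 170 bases before the RefSeq transcription start in GRCm38.p6, read 5′ to 3′ on the strand of the gene, with ISRE and GAS matches in capitals. Isg15 (chr4:156200819-156200988, minus strand), Ifit1 (chr19:34640719-34640888, plus strand) and Ifit3 (chr19:34583359-34583528, plus strand) hold repeated ISRE matches. The neighbouring genes Oas1a (chr5:120907526-120907695, minus strand) and Oas1g (chr5:120887614-120887783, minus strand) hold overlapping ISRE matches just before the start, and Oas1a also holds a GAS match further upstream, at -98 to -90 from the start. Irf1 (chr11:53769844-53770013, plus strand) holds a GAS match and no ISRE match, and Gbp2 (chr3:142620493-142620662, plus strand) holds an ISRE match. Igtp (chr11:58199386-58199555, plus strand) and Irgm2 (chr11:58214807-58214976, plus strand) hold a GAS match followed by an ISRE match.
Isg15: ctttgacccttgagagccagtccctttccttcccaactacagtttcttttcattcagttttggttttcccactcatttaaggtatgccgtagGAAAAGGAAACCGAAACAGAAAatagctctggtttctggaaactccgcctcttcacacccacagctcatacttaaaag
Ifit1: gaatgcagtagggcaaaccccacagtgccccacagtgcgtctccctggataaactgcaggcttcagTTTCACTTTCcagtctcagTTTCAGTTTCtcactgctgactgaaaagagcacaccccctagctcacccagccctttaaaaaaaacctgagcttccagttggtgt
Ifit3: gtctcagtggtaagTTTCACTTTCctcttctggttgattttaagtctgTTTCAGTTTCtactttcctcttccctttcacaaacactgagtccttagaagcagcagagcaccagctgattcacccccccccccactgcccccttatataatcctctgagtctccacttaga
Oas1a: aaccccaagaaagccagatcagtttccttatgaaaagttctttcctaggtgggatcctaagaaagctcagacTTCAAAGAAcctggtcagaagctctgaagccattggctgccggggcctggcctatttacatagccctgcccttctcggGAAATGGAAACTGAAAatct
Oas1g: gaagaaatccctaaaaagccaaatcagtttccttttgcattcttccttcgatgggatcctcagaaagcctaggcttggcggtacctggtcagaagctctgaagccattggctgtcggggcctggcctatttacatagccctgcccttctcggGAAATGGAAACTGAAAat
Irf1: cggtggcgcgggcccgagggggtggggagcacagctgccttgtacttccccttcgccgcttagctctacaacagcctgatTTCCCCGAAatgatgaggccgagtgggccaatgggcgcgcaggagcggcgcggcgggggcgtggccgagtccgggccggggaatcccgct
Gbp2: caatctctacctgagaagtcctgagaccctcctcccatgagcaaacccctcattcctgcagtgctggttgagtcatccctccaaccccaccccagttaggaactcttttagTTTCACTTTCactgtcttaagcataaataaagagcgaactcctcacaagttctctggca
Igtp: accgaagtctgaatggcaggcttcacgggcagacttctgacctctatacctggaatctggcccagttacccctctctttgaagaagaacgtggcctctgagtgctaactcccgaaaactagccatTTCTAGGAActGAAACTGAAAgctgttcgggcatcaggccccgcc
Irgm2: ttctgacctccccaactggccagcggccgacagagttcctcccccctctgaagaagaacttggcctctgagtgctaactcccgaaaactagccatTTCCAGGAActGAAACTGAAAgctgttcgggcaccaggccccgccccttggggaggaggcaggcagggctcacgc

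The ISRE was searched on both strands as GAAA, any 2 bases and GAAA again and the GAS element as TTCNNNGAA, which reads the same on both strands. With position -1 as the last base before the start, Isg15 had ISRE matches at -78 to -69, -72 to -63 and -66 to -57, which overlap each other. Ifit1 had matches at -104 to -95 and -85 to -76, and Ifit3 at -156 to -147 and -122 to -113, in each case on the strand opposite to the gene. RefSeq promoters of 300 bases (250 before and 50 after the start) were found for 33 of the 44 members, in 38 entries. At least 1 ISRE match lay in 52.6% of these entries against 3.44% of all 32851 promoters, and at least 1 GAS match in 23.7% against 8.30%. By gene, 19 members held an ISRE match, 9 a GAS match, 6 both and 11 neither. All 6 GBP and IRG genes with an entry held an ISRE match, while Irf7, Irf9, Oasl1, Oasl2, Lgals3bp, Xaf1, Cmpk2, Herc6, Dtx3l, Ifi44 and Epsti1 held neither motif in this window. A match describes the letters and does not show binding. Dhx58, Zbp1, Usp18, Oas2, Mx1, Mx2, Iigp1, Parp9, Parp14, Rtp4 and Tor3a had no entry.

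Total counts ran from 18926634 to 23642415 per library. The share of counts on the mitochondrial chromosome was 4.30% to 11.8% in 8 libraries but 26.5% for flox 1 and 29.3% for flox 4. Both stand apart, and results are also given without them. The Sox21 transcript had a log2 fold change, CKO over flox, of 0.38 ± 0.34 (SE, edgeR adjusted p = 0.577), so it did not check the labels, and the deleted part of the gene is not given in the sources used here. Summed crypt epithelium markers (12 genes, led by Krt8, Krt19 and Muc2) ran from 39720 to 42900 CPM (counts scaled by library size) in flox and from 18380 to 36230 in CKO, so the defining markers of the labelled tissue were present. Markers of other cells were at far lower sums: T and NK cells 28.5 to 50.7 CPM in flox and 14.8 to 46.4 in CKO, and B and plasma cells 4.19 to 14.3 and 4.20 to 5.45. Macrophage and dendritic cell markers summed to 83.8 to 623 CPM in flox and 205 to 389 in CKO, most of it Cd74, with Siglech at 2 counts or fewer in each library. In bulk RNA, fewer cells of a type and less RNA per cell cannot be told apart.

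Across the 44 genes, 42 had a log2 fold change below 0 in CKO against flox, with a median of -0.38, while 49.9% of all genes tested lay below 0 and their median was 0.001. No member passed the test (edgeR quasi-likelihood, Benjamini-Hochberg adjusted p from 0.332 to 0.987 over all genes tested), and no other gene did either, with 0.00% called. At an unadjusted p under 0.05 there were 8 members, all lower in CKO, against 13.0% of all genes, 7.91% lower and 5.05% higher. DESeq2 called 0 members and 1.19% of all genes (0.789% lower and 0.401% higher in CKO). The groups overlapped for all 44 members, while 1.26% of all genes had every CKO library below every flox library and 0.922% the opposite, 2.18% in all. Without flox 1 and flox 4, 42 of 44 were again below 0 with a median of -0.33, against 46.7% of all genes. In those 8 libraries 2 members had an unadjusted p under 0.05 against 6.41% of all genes (3.07% lower and 3.34% higher). Scaling by library totals alone moved the median of all genes to 0.36; 24 of 44 members were then below 0, and 43 of 44 were below that median. The median of the 44 depended on few libraries: it was -0.22 without CKO 3 (37 lower), -0.24 without CKO 5 (35 lower), -0.26 without flox 5 (35 lower) and -0.56 without CKO 2 (43 lower).

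**Figure D1:**
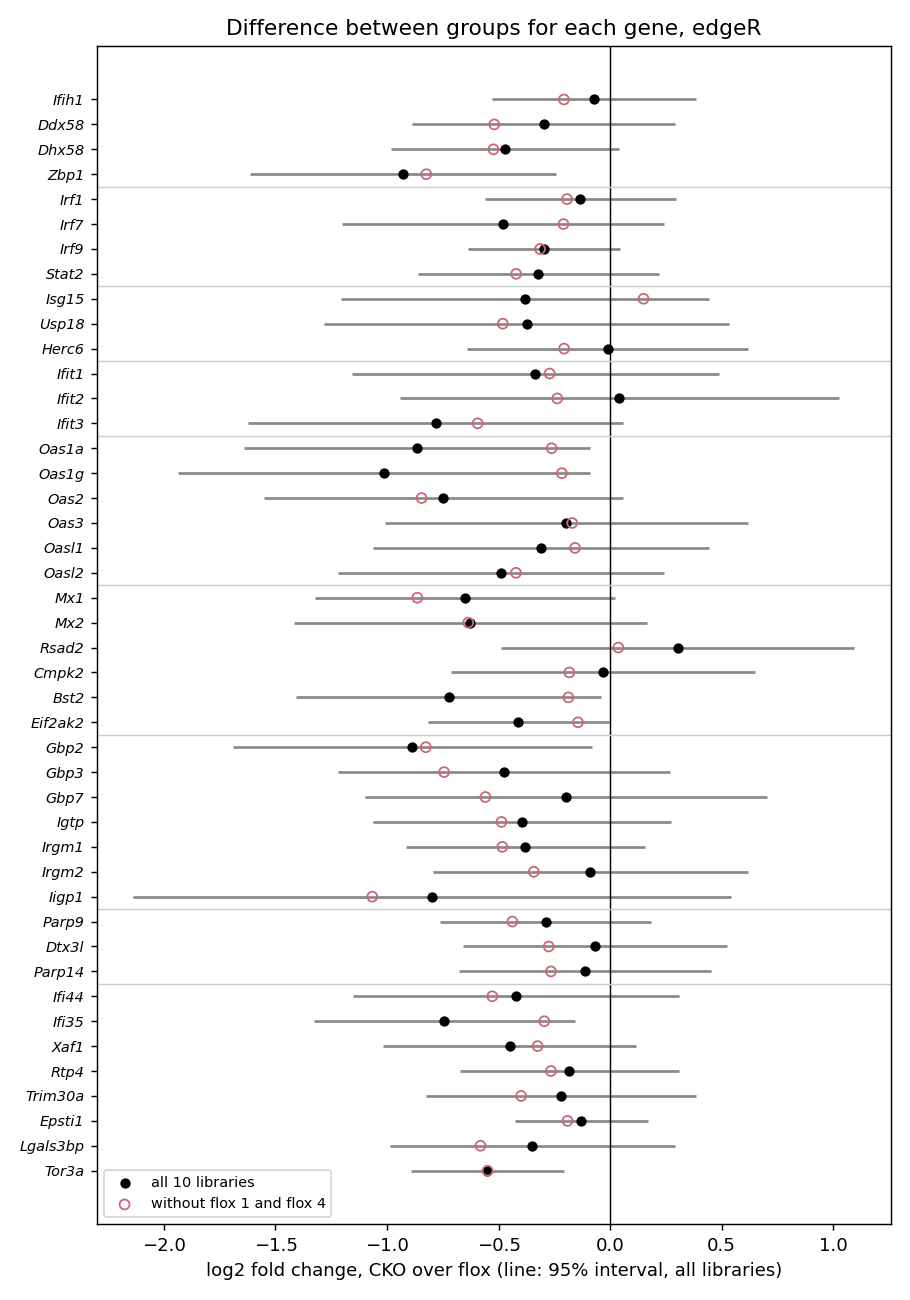
Log2 fold change, CKO over flox, of each of the 44 genes (vertical axis, grouped by role) from edgeR; filled points use all 10 libraries with their 95% interval as a line, and open circles leave out flox 1 and flox 4. 42 filled points lie left of 0, as do 42 open circles, with Isg15 crossing to the right and Ifit2 to the left when those libraries are left out; under library totals alone 24 of 44 lie left of 0.

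By level per transcript length, the 44 genes spanned a wide range. The mean of the deposited FPKM (fragments scaled by transcript length and library total) over 10 libraries ran from 1.21 for Gbp7 to 271 for Lgals3bp, with a median of 15.3. After Lgals3bp came Irf7 at 203 FPKM, Oas1a at 195, Isg15 at 174, Oas1g at 131, Oasl2 at 111 and Bst2 at 106. Herc6 at 2.73 FPKM, Mx2 at 2.89, Rsad2 at 2.96 and Gbp3 at 3.38 stood just above Gbp7. The levels below are CPM after trimmed-mean scaling, which compare libraries for 1 gene and not genes with each other.

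Among the 4 sensors of viral nucleic acid, all 4 had a log2 fold change below 0 with a median of -0.38, and none passed the test. Zbp1 (ENSMUSG00000027514), a sensor of Z-form nucleic acid that can trigger necroptosis, stood at 99.7, 68.9, 105, 128 and 115 CPM in flox 1 to 5 and at 65.2, 90.2, 26.2, 59.7 and 30.4 CPM in CKO 1 to 5. All 5 CKO libraries lay below the flox median and 4 lay below the lowest flox library, with CKO 3 and CKO 5 the lowest, and only CKO 2 made the groups overlap. The means were 103 ± 22.1 CPM in flox and 54.3 ± 26.4 in CKO (SD, n = 5 each). The CKO to flox ratio was 0.525 with a 95% interval of 0.327 to 0.845, but the edgeR adjusted p was 0.365. Ifih1 (ENSMUSG00000026896), which encodes the RNA sensor MDA5, stood at 35.6, 53.5, 46.1, 53.6 and 75 CPM in flox and 58.3, 63.8, 41.2, 52.0 and 35.7 CPM in CKO. Here flox 1 was as low as CKO 5, no CKO library lay below it, and the log2 fold change was -0.07 ± 0.21 (edgeR adjusted p = 0.873), or -0.21 without flox 1 and flox 4. Ddx58, the gene of RIG-I, ranged from 12.8 CPM in CKO 5 to 39.4 in flox 5, with a log2 fold change of -0.30, or -0.52 without flox 1 and flox 4. Dhx58, the gene of LGP2, ranged from 15.7 in CKO 5 to 43.4 in flox 5, and 4 of its 5 CKO libraries lay below the lowest flox library.

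The 4 transcription factors were all below 0, with a median of -0.31. Irf7 (ENSMUSG00000025498), the factor that amplifies type I interferon production, stood at 524, 273, 331, 486 and 405 CPM in flox 1 to 5 and at 282, 420, 174, 441 and 129 CPM in CKO 1 to 5. CKO 5 and CKO 3 were the lowest libraries, while the other 3 CKO libraries lay inside the flox range. Its log2 fold change was -0.48 ± 0.33 (SE, edgeR adjusted p = 0.486), and -0.21 without flox 1 and flox 4. Irf1 (ENSMUSG00000018899), the factor induced by interferon gamma through the GAS element shown above, stood at 138, 161, 161, 162 and 182 CPM in flox and at 195, 194, 103, 134 and 106 CPM in CKO. CKO 1 and CKO 2 exceeded every flox library and the other 3 CKO libraries lay below every one. That spread left a log2 fold change of -0.13 ± 0.20 (edgeR adjusted p = 0.732). Irf9 and Stat2, which encode parts of the complex that binds the ISRE, ranged from 39.6 to 70.5 CPM and from 37.0 to 100 CPM, with the lowest value of each in CKO 3 and the highest in flox 5.

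The 3 genes of the ISG15 system had log2 fold changes from -0.38 to -0.01. Isg15 (ENSMUSG00000035692), the ubiquitin-like modifier, stood at 149, 44.7, 53.9, 93.4 and 75 CPM in flox and at 52.1, 86.3, 32.4, 106 and 41.9 CPM in CKO. Flox 1 was the highest library and CKO 3 the lowest. The log2 fold change of Isg15 was -0.38 ± 0.38 (edgeR adjusted p = 0.616) and its sign turned, to 0.15, without flox 1 and flox 4. Usp18 (ENSMUSG00000030107), the protease that removes ISG15 and dampens receptor signalling, stood at 17.3, 18, 13.0, 15.9 and 30.4 CPM in flox and at 15.2, 29.3, 6.30, 16.7 and 5.62 CPM in CKO. Flox 5 and CKO 2 were high, CKO 3 and CKO 5 were low, and the log2 fold change was -0.37 ± 0.41 (edgeR adjusted p = 0.654). Herc6, the ligase that attaches ISG15 in mice, ranged from 5.99 CPM in CKO 3 to 15.2 in CKO 2, with a log2 fold change of -0.01 that became -0.21 without flox 1 and flox 4.

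The IFIT proteins bind viral RNA lacking host cap marks, and 2 of the 3 genes were below 0. Ifit1 (ENSMUSG00000034459) stood at 47.8, 30.1, 38.4, 55.4 and 71.5 CPM in flox and at 41.1, 58.2, 23.2, 57.4 and 12.9 CPM in CKO. CKO 5 was the lowest library and flox 5 the highest, 5.52-fold apart; CKO 3 also lay below the flox range and the other 3 CKO libraries inside it. The log2 fold change of Ifit1 was -0.34 ± 0.38 (edgeR adjusted p = 0.657). Ifit3 (ENSMUSG00000074896), a partner of IFIT1, stood at 31.8, 12.4, 24.9, 25.4 and 26.9 CPM in flox and at 11.5, 21.4, 9.27, 23.5 and 4.99 CPM in CKO. All 5 CKO libraries lay below the flox median and 3 below the lowest flox library, for a log2 fold change of -0.78 ± 0.38 (edgeR adjusted p = 0.396). Of the 50-base windows of Ifit3 transcripts, 51.2% also occur in Ifit3b, so its counts are uncertain. Ifit2 ranged from 4.39 CPM in CKO 5 to 25 in flox 5, with a log2 fold change of 0.04 that became -0.24 without flox 1 and flox 4.

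The 6 genes of the OAS family, which encode oligoadenylate synthetases and related proteins that activate RNase L or sense viral RNA, were all below 0 with a median of -0.62, and of -0.24 without flox 1 and flox 4. Oas1a (ENSMUSG00000052776) stood at 754, 227, 305, 565 and 337 CPM in flox and at 216, 310, 159, 366 and 149 CPM in CKO. Those with much mitochondrial RNA, flox 1 and flox 4, were the highest, and CKO 5 and CKO 3 the lowest. The log2 fold change was -0.87 ± 0.35 (edgeR adjusted p = 0.374) with all libraries and -0.26 without flox 1 and flox 4. Oas1g (ENSMUSG00000066861) stood at 443, 98.6, 158, 350 and 165 CPM in flox and at 99.9, 139, 77.1, 213 and 72.8 CPM in CKO. The order of the libraries was close to that of Oas1a, and the log2 fold change, the lowest of the 44, moved from -1.01 ± 0.42 (edgeR adjusted p = 0.376) to -0.22 when flox 1 and flox 4 were left out. These genes share 57.6% of the windows of Oas1a and 54.1% of those of Oas1g, so their reads may be split between them. Oasl2 (ENSMUSG00000029561) stood at 248, 143, 213, 250 and 320 CPM in flox and at 163, 258, 87.9, 244 and 83.5 CPM in CKO. Only CKO 3 and CKO 5 lay below the flox range (log2 fold change -0.49 ± 0.34, edgeR adjusted p = 0.486). Oas2, Oas3 and Oasl1 each had their lowest value in CKO 5, at 9.84, 22.6 and 31.1 CPM, and their log2 fold changes were -0.75, -0.20 and -0.31 (-0.84, -0.17 and -0.16 without flox 1 and flox 4).

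The other direct antiviral effectors held 5 of 6 genes below 0, with a median of -0.52, and of -0.19 without flox 1 and flox 4. Bst2 (ENSMUSG00000046718), which encodes tetherin and holds budding virions at the membrane, stood at 129, 42.4, 57.8, 73.8 and 44.3 CPM in flox and at 34.6, 53.1, 31.3, 58.8 and 32.4 CPM in CKO. Flox 1 was far above the rest, and CKO 1, CKO 3 and CKO 5 lay below every flox library. The log2 fold change of Bst2 was -0.72 ± 0.31 (edgeR adjusted p = 0.379), and -0.19 without flox 1 and flox 4. Eif2ak2 (ENSMUSG00000024079), the gene of the kinase PKR that stops translation, stood at 61.8, 34.7, 34.2, 54.6 and 47.5 CPM in flox and at 38.8, 39.0, 28.6, 39.1 and 29.3 CPM in CKO. CKO 3 and CKO 5 lay below every flox library, and the other 3 CKO libraries lay between flox 2 and flox 5. The log2 fold change was -0.41 ± 0.19 (edgeR adjusted p = 0.382), and -0.14 without flox 1 and flox 4. Mx1 and Mx2, GTPases that block viral nucleocapsids, had log2 fold changes of -0.65 and -0.63 and were lowest in CKO 5, at 6.37 and 1.34 CPM. Cmpk2, a nucleotide kinase, had a log2 fold change of -0.03, or -0.18 without flox 1 and flox 4. Rsad2, the gene of viperin, had a log2 fold change of 0.30 ± 0.36 (edgeR adjusted p = 0.678), the highest of the 44 over all libraries, with 5.38 CPM in flox 1 and 17.2 in CKO 2 as its extremes. Without flox 1 and flox 4 the Rsad2 value was 0.04, below the 0.15 of Isg15.

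GBP and IRG GTPases attack the membranes of pathogen vacuoles and are classical targets of interferon gamma. All 7 were below 0 with a median of -0.39, and of -0.56 without flox 1 and flox 4. Gbp2 (ENSMUSG00000028270) stood at 26.0, 22.4, 55.8, 46.5 and 21.0 CPM in flox and at 23.63, 29.1, 7.54, 14.9 and 17.6 CPM in CKO. CKO 3, CKO 4 and CKO 5 lay below every flox library, while flox 3 and flox 4 were the highest, and the log2 fold change was -0.89 ± 0.37 (edgeR adjusted p = 0.375). Irgm1 (ENSMUSG00000046879), a regulator of the other IRG proteins, stood at 63.5, 64.3, 91.4, 75.2 and 98.4 CPM in flox and at 80.6, 86.9, 37.5, 56.6 and 40.4 CPM in CKO. The same 3 CKO libraries were below the flox range and the other 2 inside it (log2 fold change -0.38 ± 0.24, edgeR adjusted p = 0.467). Irgm2 (ENSMUSG00000069874), a further regulatory IRG gene, stood at 27.7, 49.1, 56.3, 38.5 and 63.7 CPM in flox and at 58.1, 76.2, 23.8, 34.4 and 29.2 CPM in CKO. CKO 2 was its highest library and CKO 3 its lowest, and the log2 fold change was -0.09 ± 0.32 (edgeR adjusted p = 0.903), or -0.34 without flox 1 and flox 4. Iigp1 varied most of the 44, 12.5-fold from 2.25 CPM in CKO 3 to 28.1 in flox 3, and with an SE of 0.61 its log2 fold change of -0.80 had an edgeR adjusted p of 0.525. Igtp ran from 17.1 CPM in CKO 3 to 59.8 in flox 3, and Gbp3 from 2.94 in CKO 3 to 11.3 in flox 5. Gbp7 was at 1.27 CPM in flox 1 and from 3.42 to 8.40 in the other libraries. Leaving out flox 1 and flox 4 moved the log2 fold change of Gbp7 from -0.20 to -0.56 and that of Gbp3 from -0.48 to -0.74.

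Parp9, Dtx3l and Parp14 encode ADP-ribosyltransferases and a ubiquitin ligase linked to antiviral defence, and all 3 were below 0 with a median of -0.11, and of -0.28 without flox 1 and flox 4. Parp14 (ENSMUSG00000034422) stood at 59.2, 66.0, 74.7, 62.9 and 106 CPM in flox and at 87.4, 100, 44.9, 68.0 and 40.9 CPM in CKO. Only CKO 3 and CKO 5 lay below the flox range, and the log2 fold change was -0.11 ± 0.26 (edgeR adjusted p = 0.833), or -0.27 without flox 1 and flox 4. Parp9 (ENSMUSG00000022906) stood at 54.7, 59.3, 70.6, 55.8 and 92.3 CPM in flox and at 71.7, 69.0, 40.7, 54.3 and 36.6 CPM in CKO. It had the same 2 libraries at the bottom and a log2 fold change of -0.29 ± 0.22 (edgeR adjusted p = 0.516), or -0.44 without flox 1 and flox 4. Dtx3l, whose product pairs with PARP9, ranged from 34.0 CPM in CKO 5 to 83.2 in flox 5, with a log2 fold change of -0.07, or -0.28 without flox 1 and flox 4.

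Of the other 8 induced genes, all were below 0 with a median of -0.39. Tor3a (ENSMUSG00000060519), an ATPase of the endoplasmic reticulum, had the smallest p of the 44 and stood at 50, 53.5, 55.1, 65.3 and 66.2 CPM in flox and at 41.6, 52.5, 28.9, 38.2 and 36.9 CPM in CKO. Of the CKO libraries 4 lay below every flox library and CKO 2 lay inside the flox range. The CKO to flox ratio was 0.683 with a 95% interval of 0.538 to 0.867. The edgeR quasi-likelihood p was 0.00461 before and 0.332 after Benjamini-Hochberg adjustment, and the log2 fold change was -0.55 both with all libraries and without flox 1 and flox 4. Ifi35 (ENSMUSG00000010358), a regulator of innate signalling, stood at 124, 44.9, 68.2, 97.7 and 62.2 CPM in flox and at 45.2, 50.8, 39.2, 67.3 and 34.4 CPM in CKO. Flox 1 and flox 4 were its highest libraries, and the log2 fold change moved from -0.74 ± 0.27 (edgeR adjusted p = 0.366) to -0.29 without them. Lgals3bp (ENSMUSG00000033880), a secreted glycoprotein, stood at 225, 382, 411, 312 and 509 CPM in flox and at 346, 454, 194, 289 and 163 CPM in CKO. CKO 5 and CKO 3 were again the lowest and flox 5 the highest (log2 fold change -0.35 ± 0.29, edgeR adjusted p = 0.559, or -0.58 without flox 1 and flox 4). Ifi44, Xaf1, Rtp4, Trim30a and Epsti1 had log2 fold changes from -0.45 to -0.13, and from -0.53 to -0.19 without flox 1 and flox 4.

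**Figure D2:**
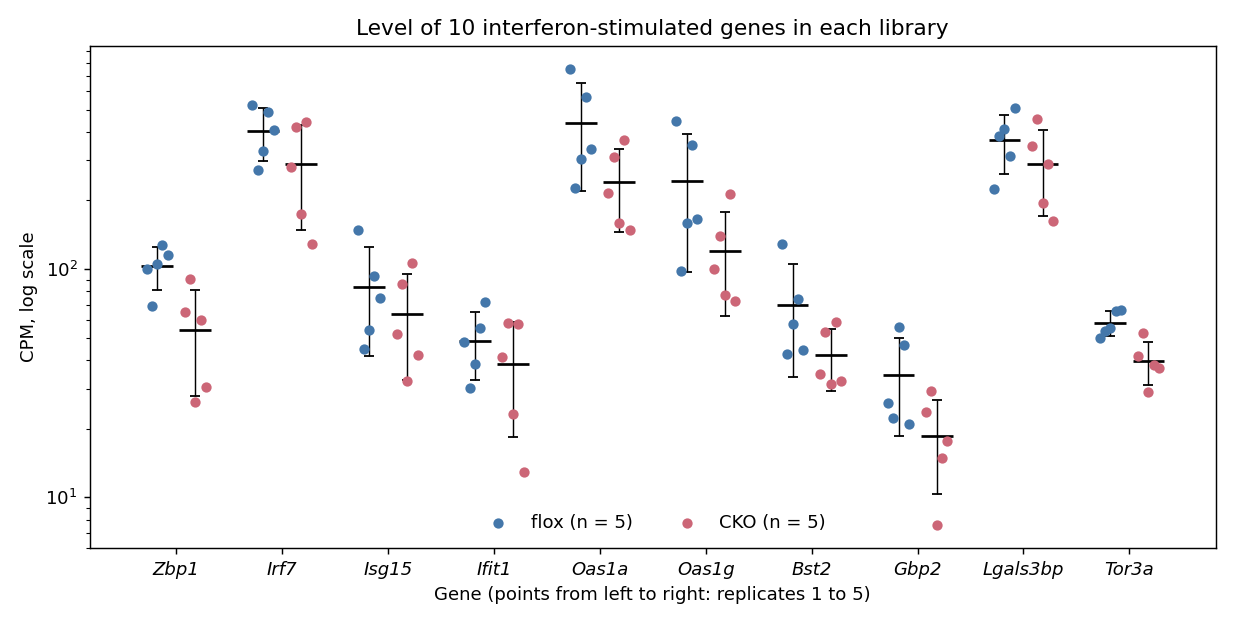
CPM (log axis) of 10 of the genes in each library, flox in blue and CKO in red, with points from left to right for replicates 1 to 5 and bars for the mean and SD (n = 5 each). CKO 3 and CKO 5 are the lowest libraries for every gene shown except Gbp2, where CKO 3 and CKO 4 are. The groups overlap for all 10 genes.

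Upstream genes of the pathway had mixed directions. Of the 6 receptor genes, 5 were above 0 and 1 below with a median of 0.17, and 4 were below 0 with a median of -0.02 without flox 1 and flox 4; none passed the test. Ifnar1, a subunit of the type I receptor, stood at 27.0 ± 6.51 CPM in flox and 30.5 ± 4.71 in CKO, and Ifnar2, its partner, at 3.06 ± 1.05 and 3.72 ± 0.425. Ifngr1, the binding chain for interferon gamma, stood at 150 ± 20.8 and 167 ± 21.7 CPM, and Ifngr2 at 120 ± 16.6 and 110 ± 18.1. Ifnlr1 and Il10rb form the type III receptor; Ifnlr1 stood at 10.4 ± 4.08 and 11.8 ± 1.69 CPM and Il10rb at 47.9 ± 14.0 and 56.1 ± 7.11. None of these differences exceeded the spread between libraries, and the edgeR adjusted p values of Ifngr1 and Ifngr2 were 0.569 and 0.651.

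The kinases Jak1, Jak2 and Tyk2 had log2 fold changes of 0.12, -0.08 and 0.06, none past the test. Among 7 negative regulators 5 were below 0, and among 12 tested genes for the induction of interferon 8 were, with medians of -0.25 and -0.15. Ikbke, a kinase that activates IRF3 and IRF7, had the smallest p of those lists, at 74.4 ± 15.3 CPM in flox and 49.4 ± 8.09 in CKO (log2 fold change -0.59 ± 0.17, edgeR adjusted p = 0.332). Of the ligands, Ifng had 0, 5, 2, 2 and 0 counts in flox and 3, 2, 2, 2 and 1 in CKO, and Ifnk had counts in CKO 5 alone, so neither was tested. The other interferon genes of the list are not analysed here.

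A further 58 interferon-stimulated genes were listed beside the 44, of which 50 were tested. Of these, 42 had a log2 fold change below 0 with a median of -0.28, and 0 passed the edgeR test. An unadjusted p under 0.05 was found for 12 of the 50, all lower in CKO, against 7.91% of all genes, and for 6 of 52 without flox 1 and flox 4, against 6.41% of all genes in either direction. DESeq2 called 2 of them, against 1.19% of all genes. Tgtp1, an IRG GTPase, stood at 17.6, 12.7, 48.7, 31.7 and 6.83 CPM in flox and at 8.71, 10.03, 1.25, 2.63 and 2.90 CPM in CKO. CKO 3, CKO 4 and CKO 5 were the lowest libraries, and the log2 fold change of Tgtp1 was -2.20 ± 0.63 (edgeR adjusted p = 0.332, DESeq2 adjusted p = 0.0221). The related Tgtp2 had a log2 fold change of -1.045 ± 0.513 (edgeR adjusted p = 0.396, DESeq2 adjusted p = 0.281). Shared transcript sequence was checked for the 44 genes only, and not for Tgtp1 and Tgtp2. Gbp4, a guanylate-binding protein at low counts, stood at 1.57 ± 0.723 CPM in flox and 0.580 ± 0.163 in CKO (edgeR adjusted p = 0.303, DESeq2 adjusted p = 0.0328). Gbp5, another of that family, stood at 0.844 ± 0.374 and 0.322 ± 0.176 CPM with an edgeR adjusted p of 0.365.

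Across the 10 libraries the 44 genes moved together. Of the 44, 23 had their lowest value in CKO 5, 18 in CKO 3 and 3 in flox 1, while 23 had their highest in flox 5, 9 in flox 1 and 7 in CKO 2. Among all genes tested, 14.4% were lowest in CKO 5, 5.37% in CKO 3 and 26.0% in flox 1. The highest value lay in flox 5 for 8.82% of them, in flox 1 for 25.2% and in CKO 2 for 8.46%. CKO 3 and CKO 5 were the 2 lowest libraries for 34 of the 44 genes, against 8.67% of all genes tested; these libraries were picked after their values were seen. The mean of the 44 genes, as log2 CPM minus the mean of each gene, was -0.82 in CKO 3 and -0.86 in CKO 5. It lay between -0.01 and 0.24 in flox 1 to 4, at 0.57 in flox 5, and at 0.02, 0.49 and 0.03 in CKO 1, CKO 2 and CKO 4. CKO 1, CKO 2 and CKO 4 thus lay within the flox range, and CKO 3 and CKO 5 lay below it.

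**Figure D3:**
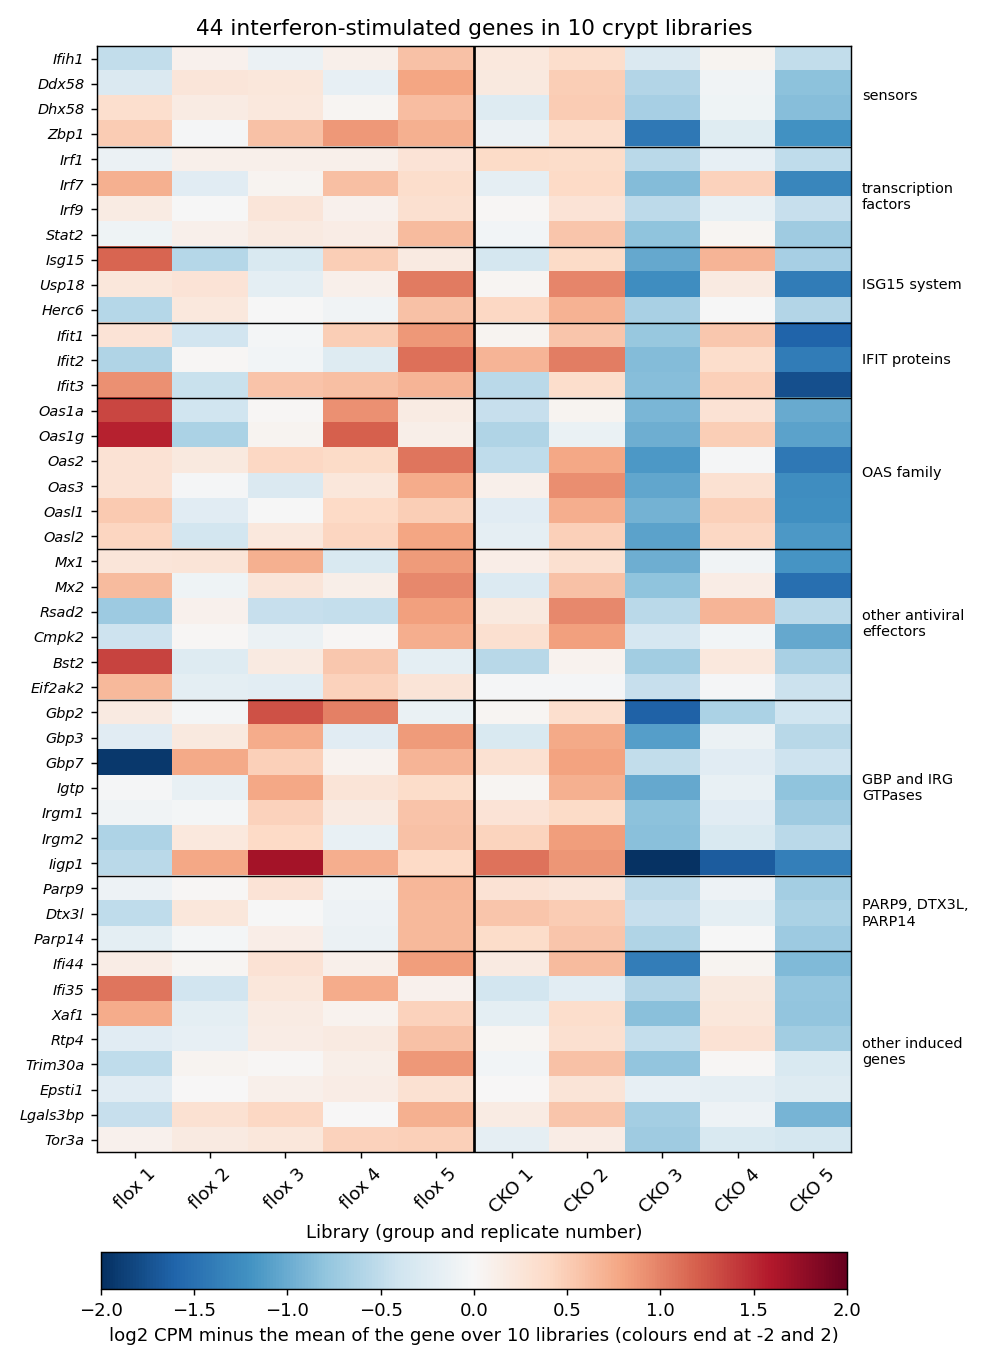
Log2 CPM minus the mean of the gene over 10 libraries (colour, ends at -2 and 2) for the 44 genes (rows, grouped by role) in each library (columns). CKO 3 and CKO 5 are blue for nearly every gene, flox 5 and CKO 2 are red for most, and flox 1 is red for Oas1a, Oas1g, Bst2, Isg15 and Ifi35 but blue for Gbp7.

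The Pearson correlation of log2 CPM between members, over 946 pairs, had a median of 0.732 and a range of -0.50 to 0.99, and the Spearman median was 0.636. Among all pairs of tested genes the Pearson median was 0.002, and 9.13% of pairs exceeded 0.7, against 55.6% of member pairs. Subtracting the group means left the member median at 0.729, so the covariation remained once the difference between flox and CKO was removed. It was uneven between the groups: the median was 0.881 within the 5 CKO libraries and 0.429 within the 5 flox libraries. Within CKO 83.19% of member pairs exceeded 0.7, against 13.01% of all pairs. Within flox 30.55% of member pairs did, against 18.95% of all pairs, and the lowest member pair stood at -0.963. Over the 8 libraries other than flox 1 and flox 4 the median reached 0.843 and every pair was above 0, with a minimum of 0.12. All these correlations share the same 10 libraries and their scaling, and are a description of them. The member median fell to 0.655 without CKO 5 and 0.667 without CKO 3, and reached 0.805 without flox 1.

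**Figure D4:**
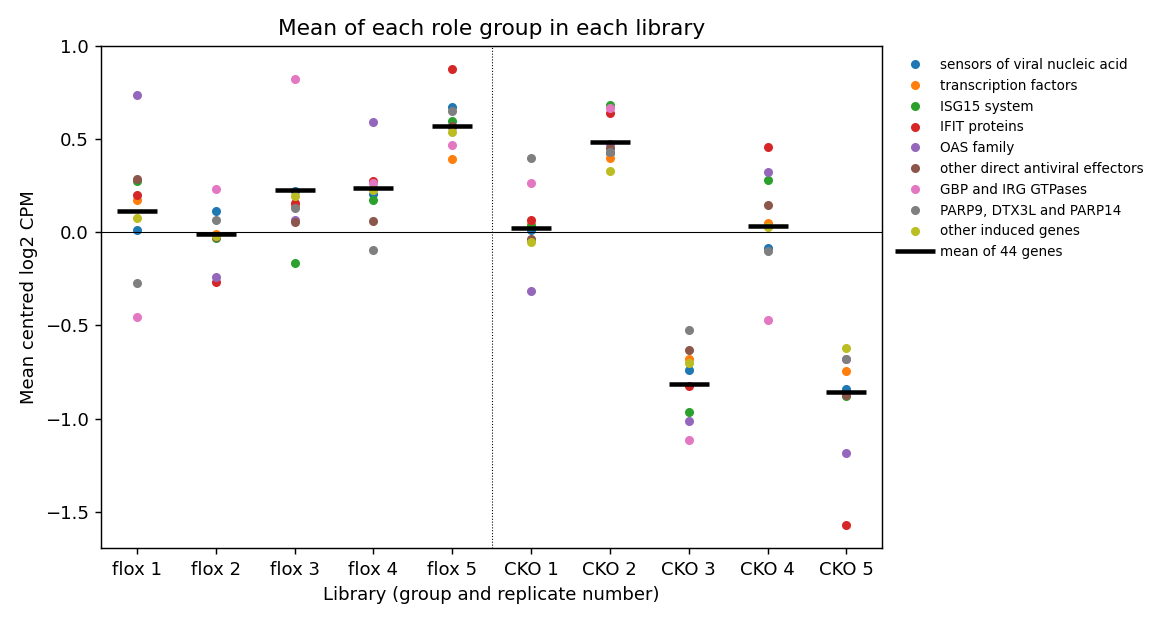
Mean log2 CPM, relative to the mean of each gene, of each of 9 role groups (coloured points) and of all 44 genes (black bars) in every library. All 9 groups are below -0.5 in CKO 3 and CKO 5 and above 0.3 in flox 5 and CKO 2, while they spread apart in flox 1, flox 3 and CKO 4.

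Correlation was highest within the PARP9, DTX3L and PARP14 group (median 0.921 over its pairs), followed by the transcription factors (0.828), the OAS family (0.819) and the GBP and IRG genes (0.812). The lowest was among the other direct antiviral effectors, at 0.484. Stat2 tracked the rest most closely, with a median correlation of 0.862 with the other 43 members, then Oas2 (0.844) and Lgals3bp (0.835). Gbp7 (0.401), Bst2 (0.421), Ifi35 (0.445), Oas1g (0.461) and Isg15 (0.488) did so least. The closest pair was Oas1a with Oas1g at 0.99, which share transcript sequence as given above, and the most opposed was Bst2 with Gbp7 at -0.50. In the 8 libraries other than flox 1 and flox 4 that last pair stood at 0.469.

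A principal component analysis of the 44 genes put 65.2% of their variance on the first component, 20.2% on the second and 8.70% on the third (48.2%, 16.1% and 9.0% for all genes). CKO 3 and CKO 5 formed the low end of the first component, at -5.72 and -6.09, and flox 5 and CKO 2 the high end, at 3.82 and 3.32. The second component set flox 1 (4.18) and flox 4 (1.59) against CKO 1 (-1.88) and flox 2 (-1.63). Its positive side was led by Oas1g, Oas1a, Bst2, Isg15 and Ifi35 and its negative side by Gbp7, Iigp1, Irgm2 and Ifit2. The third component ran from flox 3 (2.11) to CKO 4 (-2.02), with Iigp1 and Gbp2 at one end and Rsad2 at the other. Flox 3 was thus high for GBP and IRG genes, with a mean of 0.82, while its ISG15 system genes had a mean of -0.17; CKO 4 was the reverse, at -0.47 and 0.28.

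Short genes stood high in flox 1 and flox 4 relative to the other libraries. The departure of flox 1 from the mean of the other 8 libraries was 1.38 log2 units for Isg15 (longest transcript 756 bases), 1.58 for Bst2 (792 bases) and 1.30 for Ifi35 (1362 bases). It was -2.09 for Gbp7 (5614 bases) and -0.59 for Dtx3l (5309 bases). Over the 44 genes, centred log2 CPM in flox 1 correlated with log2 transcript length at r = -0.628, and in flox 4 at -0.438. Over 14128 tested genes with a length, the values were -0.359 and -0.259, so the relation with length was not limited to interferon-stimulated genes. In the other 8 libraries the member value ran from -0.27 in CKO 4 to 0.544 in CKO 1. The part of transcript length or RNA quality in the group difference was not tested.

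**Figure D5:**
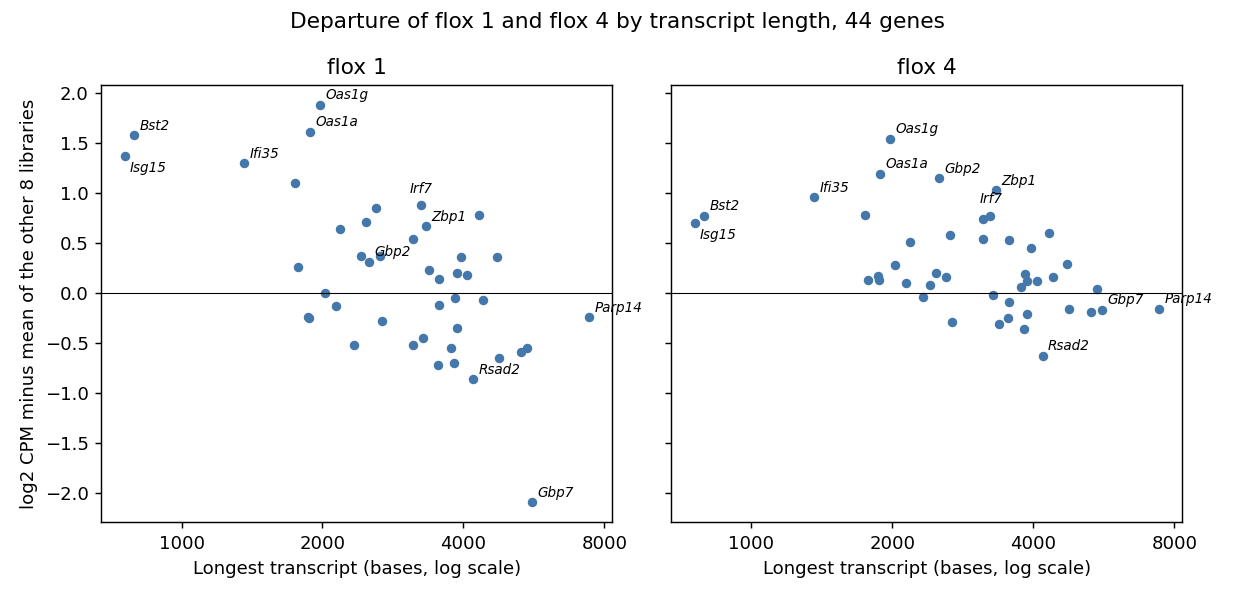
Log2 CPM in flox 1 (left) and flox 4 (right) minus the mean of the 8 libraries other than these, against the length of the longest transcript in bases (log axis), for the 44 genes. The shortest genes, Isg15 and Bst2, lie high in both libraries and the long Gbp7 lies lowest in flox 1 at -2.09.

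Irf7 was set against the other 43 members and a further listed gene across the 10 libraries, 44 relations in all. Pearson r was positive for 43 of them with a median of 0.706; 22 had a Benjamini-Hochberg adjusted permutation p under 0.05 (two-sided, 100000 permutations), and 10 did by Spearman's rho, all 10 among the 22. No share over all genes tested at the same threshold is given here, so these counts have no background beside them. Without CKO 5 and CKO 3, the libraries farthest from the median of Irf7, the median r was 0.084 and 24 relations were positive, so most relations rested on those libraries. A group of genes kept a high r without them. Isg15 had r = 0.879 (permutation p = 0.00042, adjusted 0.00283) and rho = 0.976 (permutation p = 2e-05, adjusted 0.00066), and r = 0.952 without CKO 5 and CKO 3. Oas1a had r = 0.909 (permutation p = 0.00028, adjusted 0.00283) and rho = 0.976 (permutation p = 3e-05, adjusted 0.00066), and r = 0.908 without them. Oasl1 had the highest r, 0.970 (permutation p = 9e-05, adjusted 0.00198), with rho = 0.842 (permutation p = 0.00365, adjusted 0.0201), and r = 0.88 without them. Ifit3, Oas1g, Ifi35, Bst2 and Oasl2 ran from 0.801 to 0.901 without them. Those r values still include flox 1 and flox 4, where Irf7 was highest, at 524 and 486 CPM. In flox 1 and flox 4 Isg15 stood 1.38 and 0.70 log2 units above the mean of the other 8 libraries. For Oas1a the values were 1.61 and 1.20. Leaving out flox 1 and flox 4 but keeping CKO 5 and CKO 3 gave r of 0.855 for Isg15 and 0.968 for Oas1a. Leaving out both sets was not tried.

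Within the groups the relations to Irf7 differed in size. Over the 5 flox libraries the median r was 0.007 with 22 of 44 positive, and over the 5 CKO libraries it was 0.885 with 44 of 44 positive; this difference was not tested. The lowest values within flox were those of Gbp7 (-0.73), Irgm2 (-0.65), Iigp1 (-0.64) and Lgals3bp (-0.60), which had 0.655, 0.654, 0.432 and 0.875 within CKO. Oas1a, Oas1g, Isg15, Oasl1, Ifi35 and Eif2ak2 had r of at least 0.900 in both groups. Leaving out flox 1 and flox 4 raised the count of relations past the adjusted threshold from 22 to 37. Each r within a group rests on 5 libraries. Within flox, Irf7 was highest in flox 1 and flox 4, at 524 and 486 CPM. Within CKO, it was lowest in CKO 3 and CKO 5, at 174 and 129 CPM. The part of these libraries in the difference between the groups was not tested.

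Genes in none of the lists whose log2 CPM followed the mean of the 44 most closely over the 10 libraries were named by the size of r. Lgals9, a galectin, came first at 0.977, then Slc35f6 at 0.973, Mov10, an RNA helicase, at 0.961, Arhgef16 at 0.956 and Tmem8 at 0.956. Abhd12, Zyx, Vps4a, Mark2 and Whamm followed, down to 0.943. Lgals9 stood at 234, 243, 277, 264 and 307 CPM in flox and at 224, 282, 117, 212 and 97.1 CPM in CKO, with CKO 3 and CKO 5 lowest. Of the listed genes outside the 44, Adar, an RNA-editing enzyme with an interferon-induced isoform, reached 0.979. Of the 50 other interferon-stimulated genes 20 were above 0.7, with a median of 0.657. Among 14919 tested genes that are not members 777 were above 0.7, with a median of -0.02.

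Marker lists of other cells differed in how far they followed this pattern. Fibroblast and muscle markers summed to 136.5 CPM in CKO 3, 134 in CKO 4 and 208.7 in CKO 5 against 19.4 to 72.5 in the other 7 libraries, and all 8 tested markers were negatively correlated with the mean of the 44 genes (r from -0.78 to -0.49), with Myh11 at 5 counts or fewer in each library. The summed crypt epithelium markers were lowest in CKO 5 (18380 CPM) and CKO 3 (23840). The 12 markers had a median r of 0.637 with the mean of the 44 but were split. Their r ran from -0.68 for Lgr5 and -0.30 for Slc26a3 to 0.868 for Vil1, with Epcam at -0.001 and Cdh1 at 0.148. T and NK cell markers were lowest in CKO 5 at 14.8 CPM but stood at 35.1 in CKO 3, and their median r was 0.317, with Cd4 at 6 counts or fewer. The 5 tested B and plasma cell markers had a median r of 0.067, and their sums in CKO 3 and CKO 5 were 4.46 and 5.45 CPM against 4.20 to 5.16 in the other CKO libraries. Macrophage and dendritic cell markers had a median r of -0.46, from -0.78 for Lyz2 to 0.038 for Cd74, which made up most of their sum. Endothelial markers summed to 18.7 to 70.0 CPM in flox and 7.33 to 16.4 in CKO, with Cdh5, Kdr and Emcn at or near 0. Of the 4 tested, 3 had a log2 fold change below 0 and 1 above, from -2.45 to 0.16, and 0 passed the edgeR test. DESeq2 called 2 of the 4, against 1.19% of all genes. For 2 of the 4 every CKO library lay below every flox library, against 1.26% of all genes. The r of the 4 endothelial markers with the mean of the 44 ran from -0.66 for Pecam1 to 0.541 for Ly6c1. The part of the makeup of the crypt preparations in the lower interferon-stimulated transcripts of CKO 3 and CKO 5 was not tested.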

How the data were processed

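Total RNA of mouse colon crypts was made into mRNA-enriched libraries with a TruSeq kit, per the labels' protocols, and the submitters' processing notes name fastp and HISAT2 without versions. Which build, annotation and counting program were used, and whether strand was counted, is not given in the sources used here, so antisense and overlapping genes cannot be separated. The deposited counts are whole reads per Ensembl gene ID, not normalized; the deposited FPKM are the authors' values scaled by length and library total. GENCODE M21 supplied symbols for 26095 of the 33632 IDs and transcript lengths, and RefSeq GRCm38.p6 the promoters.

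Groups and replicate numbers 1 to 5 came from the labels, and no pair of libraries agreed within sampling noise (chi-square per degree of freedom at least 27.1). Genes were filtered with filterByExpr, libraries scaled by trimmed mean of M values, and groups compared with edgeR 4.0.16 in R 4.3.3 (robust glmQLFit, glmQLFTest, group as the only term), with Benjamini-Hochberg adjustment over 14963 genes at 0.05. Correlations and components used log2 CPM with a prior count of 2. The test was run on counts simulated independently for each gene, so that check does not cover library differences shared by many genes. DESeq2 1.42.0, limma 3.58.1, other scalings, filters and pseudocounts (1 and 0.1 on FPKM), the replicate number as a block, the mitochondrial share as a covariate and leaving out libraries were tried as alternatives.

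The members, lists and naming rule were chosen with earlier results of these data known. Values in every library are given for the 2 members of each role group with the highest mean CPM and the 6 members with the smallest p; Tgtp1, Gbp4, Gbp5 and Ikbke are the other listed genes with the smallest p. Ifnb1, Ifna1, Ifna2, Ifna4, Ifna5, Ifne, Ifnl2, Ifnl3 and Ifi44l matched no ID and are not analysed here. Depth limits genes at a few CPM, such as Gbp7, Mx2 and Gbp5, most. A listed gene is not reported here; the counts over lists include it.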

Additional observations from a re-analysis of the deposited data

Results flagged for a closer look

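The highest flox value stood far from the other 4 flox values, relative to their whole range, for 4 genes, in each case in flox 5. Usp18 was at 30.4 CPM in flox 5 with the next flox library at 18 CPM. Ifit2 was at 25 CPM with the next at 11.8, Oas2 at 55.2 CPM with the next at 35.1, and Ifi44 at 20.5 CPM with the next at 14.1. The gap exceeded 0.71 of the range, Dixon's critical value for 5 samples. Groups of 5 were checked for 58 genes, 116 groups in all, and chance alone marks about 1 in 20 such groups; the genes also vary together and are not independent checks. CKO 2 reached 29.3 CPM for Usp18, 23.5 for Ifit2, 45.1 for Oas2 and 17.9 for Ifi44, so the flox 5 values had a near neighbour in the other group.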

How the results depend on the processing

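No alternative called any of the 44 genes, and 35 to 43 members stayed below 0, or below the median of all genes where a scaling moved it (0.36 for library totals, 0.30 for log2(FPKM + 1), 0.41 for log2(FPKM + 0.1)). Members at an unadjusted p under 0.05 numbered 8 with all libraries (13.0% of all genes in the same fit), 20 in limma voom with quality weights (23.8%), 18 without CKO 2 (10.8%), 5 without CKO 1 (9.35%), 4 without flox 4 (7.34%), 3 with the mitochondrial covariate (7.05%) and without flox 1 (8.51%), CKO 3 (7.34%) or CKO 5 (7.6%), and 0 with library totals (9.06%), log2(FPKM + 1) (16.0%) or log2(FPKM + 0.1) (15.6%). Over all genes, DESeq2 called 178, voom with quality weights 44, no filter 3, the mitochondrial covariate 1, and leaving out each library 0 to 2 (2 without flox 2); DESeq2 called 2 of the other interferon-stimulated genes.

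The relations to Irf7 past the threshold were 14 on log2(FPKM + 1), 37 without flox 1 and flox 4, and 13 to 37 when each library was left out (13 without CKO 3, 14 without CKO 5, 37 without flox 1). Their cause was not tested, and no share over all genes is given beside these counts.

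The numbers of the replicates did not pair the libraries: deviations of same-numbered libraries correlated at -0.30, 0.28, 0.09, 0.40 and -0.06, and 2 of 5 flox libraries were closest to their own number. With the replicate number as a block, 0 genes were called, 43 members were below 0 with a median of -0.44, and the Ifit2 log2 fold change was -0.025.

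Signs turned for genes near 0, none of them past the test. Ifit2 was at -0.082 with library totals, -0.18 in limma voom, -0.22 with quality weights, -0.039 and -0.071 on log2(FPKM + 1) and log2(FPKM + 0.1), -0.20 with the mitochondrial covariate and -0.24 without flox 1 and flox 4. With the covariate and without flox 1 and flox 4, respectively, Isg15 was at 0.17 and 0.15, Jak1 at -0.082 and -0.051, Tyk2 at -0.23 and -0.17, Ifnar1 at -0.04 and -0.041, Ifnlr1 at -0.10 and -0.12, and Il10rb at -0.02 and -0.001. Tyk2 was at -0.021 with library totals. Herc6 was at 0.005 with upper quartile scaling and 0.004 with no filter. On log2(FPKM + 1), Ifih1 was at 0.024, Epsti1 at 0.003 and Jak2 at 0.004. When each library was left out in turn, the log2 fold change ran from -0.19 to 0.09 for Ifih1, -0.22 to 0.15 for Herc6, -0.25 to 0.42 for Ifit2, -0.55 to 0.004 for Oas3, -0.30 to 0.18 for Cmpk2, -0.37 to 0.072 for Irgm2, -0.23 to 0.11 for Dtx3l, -0.29 to 0.056 for Parp14, -0.43 to 0.02 for Trim30a and -0.053 to 0.18 for Tyk2.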
